A study of Mus musculus with 16 samples.

Results

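Cell cycle genes were followed here across spleen cells that had been separated by their surface antigens. The set was a fixed list of 40 genes, and all 40 were found by symbol among the 11713 gene identifiers of the deposited table. They were divided by textbook role into 12 S-phase genes, 20 mitotic genes and 8 genes that rise in dividing cells but are also made in many resting cells, called broad genes below. The cells came from spleens of 9-month-old female BALB/cJ mice, with no treatment or altered allele named in the labels. They were profiled by CITE-seq, which counts polyadenylated RNA molecules as unique molecular identifiers (UMIs) and DNA-tagged antibodies in the same droplet. The sources Main1 and Main2 gave 1 library each in the tables, with 3179 and 3918 droplets, medians of 1789 and 1778 UMIs per droplet and 30 antibodies. The labels do not say that Main1 and Main2 are separate animals, so p-values cover only the spread between these libraries, which may be technical. The libraries shared 14 barcodes.

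Cells copy their DNA in S phase and divide it in mitosis. The S-phase genes include Mcm2 to Mcm7, which encode the replicative helicase, the sliding clamp Pcna and its partner Pclaf, and the nucleotide enzymes Rrm1, Rrm2, Tyms and Tk1. The mitotic genes encode the kinase Cdk1 and its cyclins, the Aurora and Polo kinases, and kinetochore and spindle proteins. Among them are also the ubiquitin enzyme Ube2c and the ligase activator Cdc20, which act in marking cyclins for destruction. Mki67 and Top2a coat and untangle chromosomes. The adult mouse spleen keeps erythroid and myeloid precursors that divide in the red pulp, and B cells that divide after activation. E2F factors are known to drive many S-phase promoters, and the DREAM complex and NF-Y to act on mitotic promoters through the cell cycle homology region (CHR) and CCAAT boxes.

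The promoters of the members that led the comparison of B cells by CD71 described below are shown because they carry these letters to different extents. Each is the RefSeq window on GRCm38.p6 from 250 bases before to 50 after the gene start, 5′ to 3′ on the strand of the gene. Capitals mark matches on either strand. The CHR was searched as TTTGAA and in the variant form TTCGAA, which reads the same on both strands. The other motifs were the CCAAT box and E2F words, namely TTTGGCGC, TTTCCCGC, TTTCGCGC and TTTGCCGC. In these windows no base is shared by words of different motifs, and in Ube2c a pair of CCAAT boxes on opposite strands overlap. The windows lie at chr9:65890073-65890372 (Pclaf, plus strand), chr12:24708004-24708303 (Rrm2, plus), chr11:99024140-99024439 (Top2a, minus), chr9:70421505-70421804 (Ccnb2, minus), chr2:164769679-164769978 (Ube2c, plus) and chr13:100786437-100786736 (Ccnb1, minus).
Pclaf: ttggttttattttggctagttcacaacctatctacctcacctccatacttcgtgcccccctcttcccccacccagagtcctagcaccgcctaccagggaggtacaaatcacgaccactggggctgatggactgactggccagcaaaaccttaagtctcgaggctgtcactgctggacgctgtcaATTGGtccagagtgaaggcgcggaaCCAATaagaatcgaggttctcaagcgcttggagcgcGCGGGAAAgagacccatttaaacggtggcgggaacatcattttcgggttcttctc
Rrm2: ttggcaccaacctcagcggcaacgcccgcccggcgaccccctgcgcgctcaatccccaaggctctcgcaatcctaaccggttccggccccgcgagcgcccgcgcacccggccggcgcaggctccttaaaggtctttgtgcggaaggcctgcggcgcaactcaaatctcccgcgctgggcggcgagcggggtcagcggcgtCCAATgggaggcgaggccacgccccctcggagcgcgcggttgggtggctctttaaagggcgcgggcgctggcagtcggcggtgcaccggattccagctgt
Top2a: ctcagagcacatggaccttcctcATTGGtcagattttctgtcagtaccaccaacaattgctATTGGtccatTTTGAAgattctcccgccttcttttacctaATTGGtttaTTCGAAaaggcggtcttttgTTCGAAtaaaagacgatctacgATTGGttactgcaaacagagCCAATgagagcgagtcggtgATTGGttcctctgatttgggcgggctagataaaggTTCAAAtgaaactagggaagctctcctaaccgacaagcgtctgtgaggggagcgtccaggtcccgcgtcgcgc
Ccnb2: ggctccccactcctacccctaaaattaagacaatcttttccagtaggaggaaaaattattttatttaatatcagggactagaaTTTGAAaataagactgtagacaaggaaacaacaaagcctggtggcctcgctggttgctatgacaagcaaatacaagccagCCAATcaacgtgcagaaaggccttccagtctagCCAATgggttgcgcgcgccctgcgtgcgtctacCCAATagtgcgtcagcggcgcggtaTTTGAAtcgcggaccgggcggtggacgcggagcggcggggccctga
Ube2c: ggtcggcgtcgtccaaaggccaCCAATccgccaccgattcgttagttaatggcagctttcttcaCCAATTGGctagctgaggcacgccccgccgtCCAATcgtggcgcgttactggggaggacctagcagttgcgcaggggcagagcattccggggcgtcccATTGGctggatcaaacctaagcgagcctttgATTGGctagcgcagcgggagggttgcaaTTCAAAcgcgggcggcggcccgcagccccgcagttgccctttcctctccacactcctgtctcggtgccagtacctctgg
Ccnb1: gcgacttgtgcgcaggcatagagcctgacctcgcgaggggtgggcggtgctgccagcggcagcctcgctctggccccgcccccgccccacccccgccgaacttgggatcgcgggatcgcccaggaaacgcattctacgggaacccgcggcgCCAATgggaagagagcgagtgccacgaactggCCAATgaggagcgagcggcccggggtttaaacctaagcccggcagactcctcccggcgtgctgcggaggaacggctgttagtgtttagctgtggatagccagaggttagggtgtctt
Of the 40 members 33 had a window, and Ccna2, Tpx2, Aurkb, Mcm4, Stmn1, Smc4 and H2afz were not used here. A CHR word stood in 13 of 17 mitotic windows (76.5%) and in 2 of 11 S-phase windows (18.2%), against 14.3% of the 9044 windows of genes in the table. A CCAAT box stood in 15 of 17 mitotic and 9 of 11 S-phase windows, against 39.2% of table genes, and 12 of 17 mitotic windows had at least 2 of them, against 15.5%. E2F words went the other way, with 5 of 11 S-phase windows (45.5%) and 1 of 17 mitotic windows, against 4.21% of table genes. Top2a, Ccnb2 and Ube2c, above, carried CHR and several CCAAT boxes, Pclaf carried an E2F word beside CCAAT, and Rrm2 and Ccnb1 had CCAAT boxes alone. These are matches of letters, not measured sites.

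Droplets were sorted into 12 gates by antibody alone, so that the RNA of the members took no part in naming the cells. Positive droplets were those above a 2-component mixture on each antibody. The B gate was positive for a B cell antibody, B220 and CD79b among them, and negative for CD3, and the T gate the reverse. The other gates were negative for both and are named by their antigens, such as Ly6G of neutrophils and CD71 (the transferrin receptor) without CD11b or F4/80, called CD71+ lineage-negative. The names were checked against marker genes in RNA. In the T gates at least 3 UMIs of T cell genes were found in 25 of 25 cycling and 474 of 492 other droplets. At least 3 UMIs of 6 B cell genes were found in 68 of the 75 cycling and 5217 of the 5379 other droplets of the B gate. At least 10 UMIs of 13 erythroid genes were found in 30 of 30 cycling and 24 of 24 other droplets of the CD71+ lineage-negative gate, but 17 of the 30 also had at least 3 UMIs of B cell genes, at a median depth of 19640 UMIs. In the Ly6G gate at least 10 UMIs of neutrophil genes were found in 13 of 13 and 41 of 48, and of monocyte or macrophage genes in 13 and 40. The smaller gates were checked by summed levels only: NK genes had 15297 UMIs per 1000000 UMIs (CPM) in the NKp46 gate, and monocyte or macrophage genes 28436 CPM in the CD11b Ly6C gate and 12505 CPM in the F4/80 CD106 gate, where erythroid genes took 89409 CPM. Dendritic cell genes had 714 CPM in the CD11c MHCII gate, against 152 CPM over all droplets. Whether RNA of other cells in a droplet had a part in the results below was not tested. A further 542 droplets were positive for both CD3 and a B antigen and are kept apart below.

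A droplet was called cycling when at least 3 different S-phase genes or at least 3 different mitotic genes had a UMI. The class is a range on a count and not a cell type: 84 of the 251 cycling droplets sat at exactly 3 genes and 477 others had 2. Deep droplets reach the threshold more easily, so every share is also given with each droplet thinned to 1100 UMIs, which left out 1 shallower droplet. RNA free in the suspension can also give UMIs, and its part in the calls was not tested. Of the 6846 other droplets, 3992 had no UMI of any S-phase or mitotic member.

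Over all droplets 251 of 7097 were cycling, 3.54% (95% Clopper-Pearson interval 3.12 to 3.99), with 98 in Main1 (3.08%) and 153 in Main2 (3.91%). After thinning 97 remained above the threshold, 1.37%. Intervals cover counting error only. The median depth was 7439 UMIs in cycling and 1749 in other droplets. Of the 251, 100 met the threshold in both modules, 124 in S-phase genes alone and 27 in mitotic genes alone. The B gate held 75 of the 251, the T/B double-positive droplets 77, the CD71+ lineage-negative gate 30, T gates together 25, the ungated remainder 21 and the Ly6G gate 13.

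**Figure D1:**
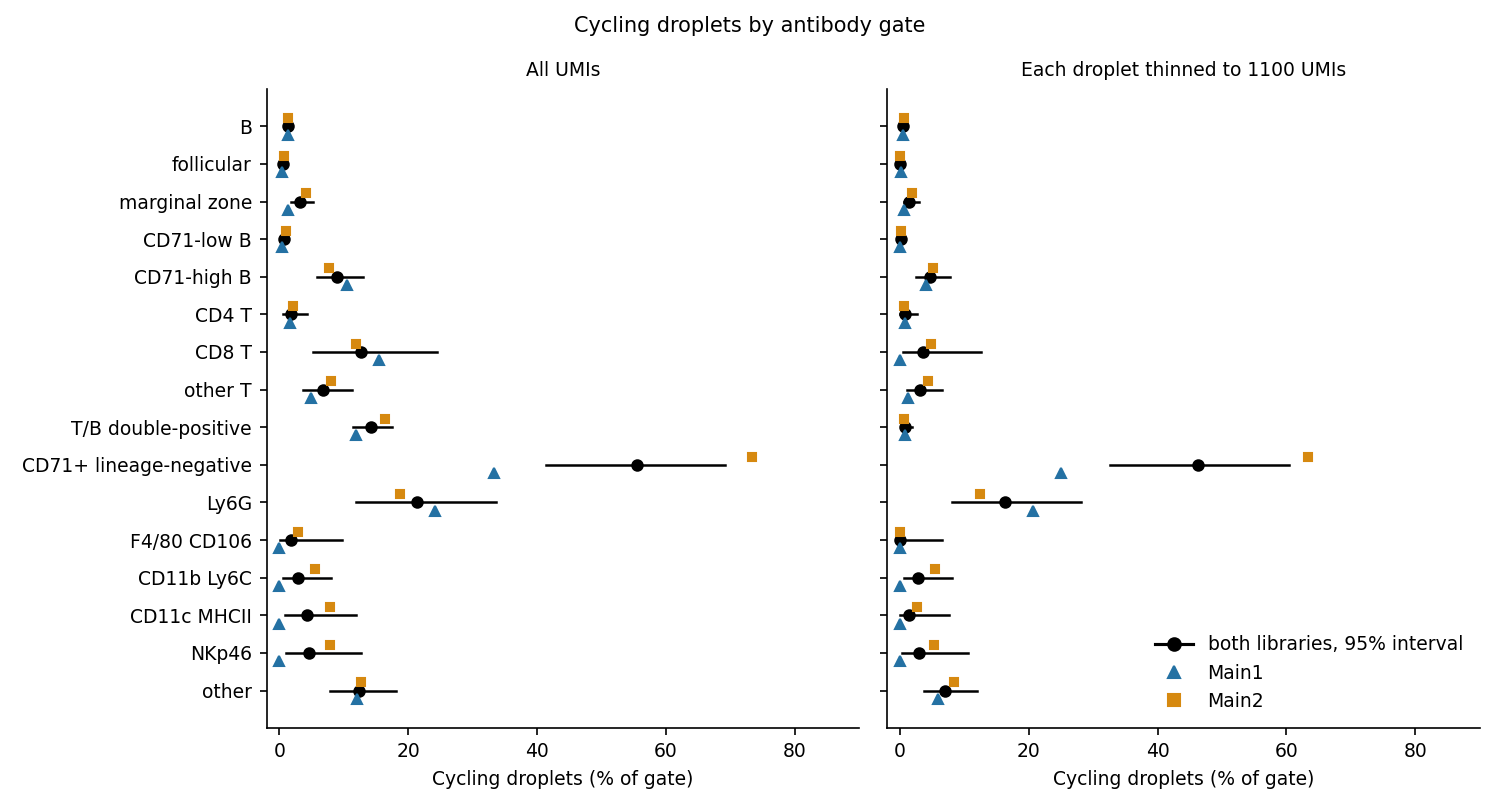
Share of cycling droplets in each antibody gate (x axis, percent of the gate), from all UMIs (left) and after thinning each droplet to 1100 UMIs (right). Circles with lines are both libraries with a 95% Clopper-Pearson interval, triangles Main1 and squares Main2. The CD71+ lineage-negative gate lies highest in both panels, at 55.6% and 46.3%, and the T/B double-positive droplets fall from 14.2% to 0.738%.

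The largest share stood in the CD71+ lineage-negative gate, where 30 of 54 droplets were cycling, 55.6% (interval 41.4 to 69.1), and 25 still were after thinning, 46.3%. Globin genes took most UMIs of its 24 other droplets, as given below, so thinning did not match depth outside globin. Without droplets of 10000 or more UMIs the share was 14.3%, below the 18.6% of the Ly6G gate in the same setting. The libraries differed, with 8 of 24 in Main1 (33.3%) and 22 of 30 in Main2 (73.3%), and so did their median depths in this gate, 3094 and 16612.5 UMIs. The Ly6G gate came next among gates of 1 lineage, with 13 of 61 (21.3%, interval 11.9 to 33.7), 7 of 29 in Main1 and 6 of 32 in Main2, and 10 of 61 after thinning. In the B gate the share was 1.38% (75 of 5454), 33 of 2419 in Main1 and 42 of 3035 in Main2, and 0.55% after thinning. Follicular droplets, defined by high IgD and lower CD21/35, held 9 cycling of 1826 (0.493%) and 1 after thinning. They served as the background of a class with few calls, at a median of 1542.5 UMIs. No test was made between gates, since droplets are not replicates and there are 2 libraries.

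T cells lay between. Over the T gates 25 of 517 droplets were cycling (4.84%), 8 of 221 in Main1 and 17 of 296 in Main2, and 10 after thinning (1.93%). CD8 T droplets held 7 of 55 (12.7%, interval 5.27 to 24.5), of which 2 remained after thinning, and CD4 T droplets held 5 of 268 (1.87%), of which 2 remained. The macrophage gate (F4/80 and CD106) held 1 of 55. The CD11b Ly6C, CD11c MHCII and NKp46 gates held 3 cycling droplets each, all of them in Main2, so these rest on 1 library. In Main1 a count of 0 allows a share of up to 5.88% of 51 CD11b Ly6C droplets, 9.09% of 33 CD11c MHCII droplets and 10.7% of 28 NKp46 droplets.

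T/B double-positive droplets need separate reading. Their share was 14.2% (77 of 542), yet 4 of 542 remained after thinning (0.738%), and the median depth of the 77 was 13102 UMIs. Of the 77, 74 had at least 3 UMIs of T cell genes and 47 at least 3 of B cell genes. The summed S-phase level of these droplets was 280 CPM against 256 CPM in the B gate. Without these droplets the share over all cells was 2.65%, in a setting added after the data were seen.

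The number of different genes per droplet is given without matching depth, at medians of 19640 UMIs in cycling droplets of the CD71+ lineage-negative gate, 6780 in the Ly6G gate and 4085 in the B gate. In the CD71+ lineage-negative gate a cycling droplet had a median of 12 of the 12 S-phase genes and 17 of the 20 mitotic genes, and all 30 passed both thresholds. Its 24 other droplets had at most 1 gene of either module, so no droplet of this gate lay near the threshold. In these 24, at a median of 2984 UMIs, the globin genes Hba-a1, Hba-a2 and Hbb-bs took 211283, 282838 and 394216 CPM. Few UMIs were left there for other genes, also after thinning. The gap therefore cannot tell whether those droplets held cycling cells. In the Ly6G gate cycling droplets had medians of 4 S-phase and 10 mitotic genes. In the B gate the medians were 3 and 2, with 39 of 75 passing on S-phase genes alone, 32 at exactly 3 genes and 311 droplets just under.

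**Figure D2:**
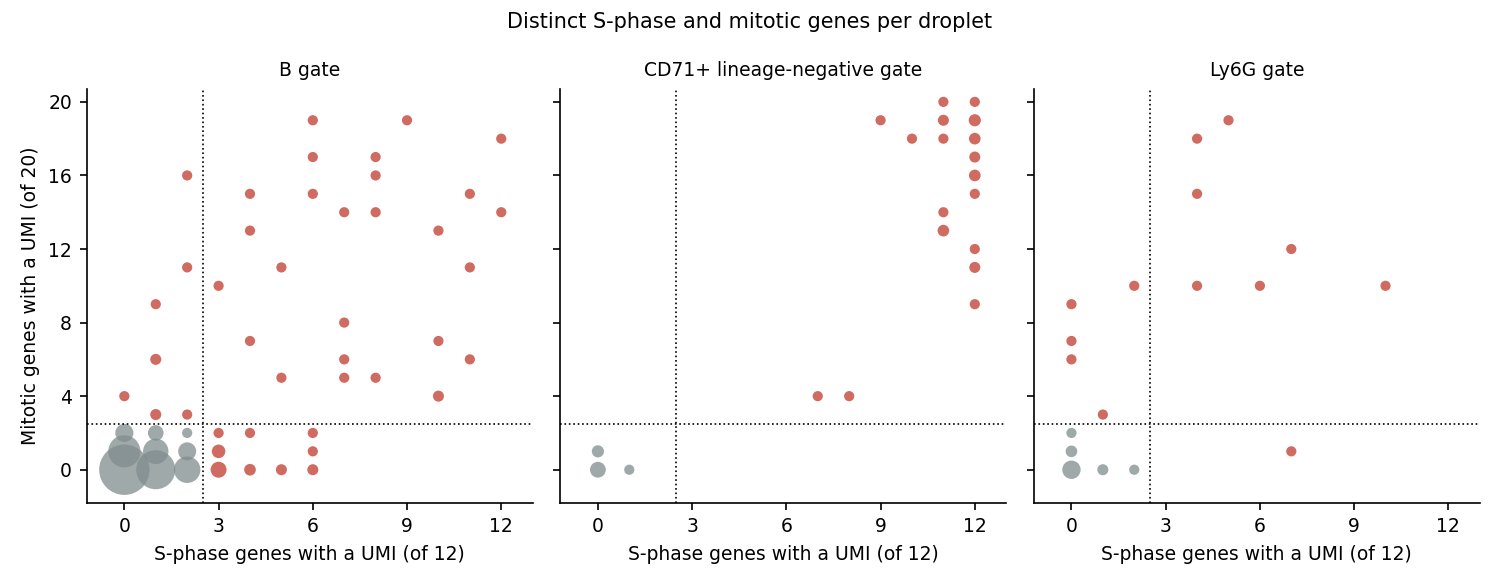
Number of S-phase genes (x axis) and mitotic genes (y axis) with a UMI in each droplet of 3 antibody gates. Dot size grows with the number of droplets, red dots are cycling droplets, grey dots the rest, and dotted lines mark the threshold of 3 genes. CD71+ lineage-negative droplets form clouds at both ends, while B droplets spread along the threshold.

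All 12 S-phase and all 20 mitotic members had their highest level in the CD71+ lineage-negative gate when libraries were summed, and so did 7 of the 8 broad members. The summed S-phase module stood at 3270 CPM in that gate (2379 in Main1, 3558 in Main2) and the mitotic module at 3853 CPM (2527 and 4281).

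Hmgb2, a chromatin protein of dividing cells, was the exception, with 2469 CPM in the Ly6G gate (2456 in Main1 and 2478 in Main2) against 2223 CPM in the CD71+ lineage-negative gate (1564 and 2436). The order was the same in both libraries, and in Main2 the values were close. Of the Hmgb2 UMIs in the Ly6G gate 67.2% lay in cycling droplets. Kif11, a spindle motor, had 31.6 and 47.1 CPM in the Ly6G gate and 23.8 and 46.0 CPM in the CD71+ lineage-negative gate, so it too was higher under Ly6G in each library, although the sums over libraries are 40.5 and 40.6 CPM.

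Members differed in how far they were limited to cycling droplets. Over all cells, mitotic members had a median of 91.0% of their UMIs in the 251 cycling droplets, from 49.6% for the centromeric histone Cenpa to 100% for the checkpoint kinase Bub1. S-phase members had a median of 58.8%, from 40.0% for Pcna to 94.4% for the ribonucleotide reductase subunit Rrm2. Pclaf had 93.6%. Broad members had a median of 54.0%, from 30.4% for the tubulin Tubb5 to 73.6% for Stmn1, a tubulin-binding protein. These shares describe the call, which rests on the same UMIs of the S-phase and mitotic members.

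Pcna and the helicase genes also had UMIs in droplets that were not called cycling. In follicular droplets the helicase genes ran from 11.3 CPM for Mcm6 to 24.4 CPM for Mcm4. Whether such droplets held resting cells, cells early in S phase or free RNA was not tested. In follicular droplets Pcna had 55.8 CPM in Main1 and 60.7 in Main2, with a UMI in 9.47% of droplets, and 3.76% of these UMIs lay in cycling droplets. Mki67 had 1 UMI in each library among the same 1826 droplets, and Top2a had a UMI in 0.657%. In the CD71+ lineage-negative gate, at a median depth of 7689 UMIs, Top2a had a UMI in 55.6% of droplets. Reads of Hmgb2, Tubb5 and H2afz can be shared with near-identical gene copies, and the sources used here do not say how such reads were counted.

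**Figure D3:**
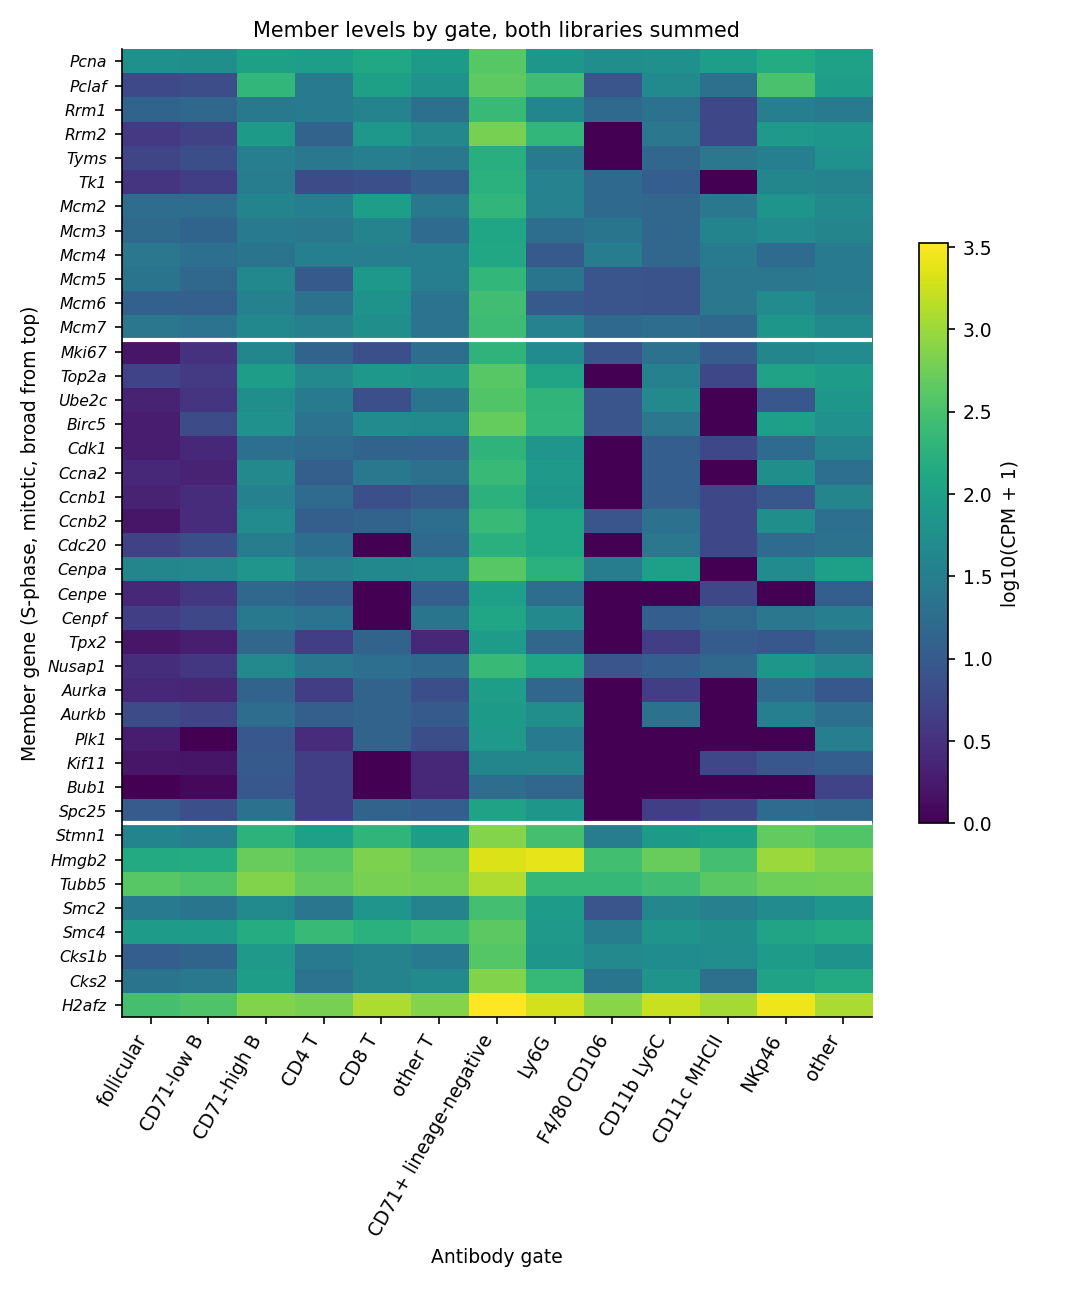
Level of each of the 40 members (rows) in antibody gates, with the B gate shown by its subsets (columns), as log10 of CPM plus 1 on UMIs summed over both libraries. White lines divide S-phase, mitotic and broad genes. The CD71+ lineage-negative column is brightest for every gene but Hmgb2.

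CD71 brings iron into cells and is known to be raised on dividing lymphocytes, so the B gate was compared by its CD71 tags. The top 5% of CD71 in each library (CD71-high, 279 droplets) was set against the droplets at or under the median (CD71-low, 2827). Of the CD71-high droplets 25 were cycling (8.96%, interval 5.88 to 12.9), 13 of 124 in Main1 and 12 of 155 in Main2. Of the CD71-low droplets 20 were (0.707%), 4 of 1227 and 16 of 1600. Thinned to 1100 UMIs the shares were 4.66% and 0.177%, with 5 against 1 droplet in Main1 and 8 against 4 in Main2, so CD71-high droplets were ahead at equal depth in both libraries. Median depths were 3636 and 1525 UMIs. With the B gate cut into 5 equal bins of CD71 tags, the share was 0.733%, 0.642%, 0.55%, 0.733% and 4.22% from lowest to highest, so that the rise lay in the top bin, where the median depth was also highest (2665.5 UMIs against 1513 to 1770). After thinning these bins held 2, 3, 0, 4 and 21 cycling droplets.

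S-phase genes led by Pclaf were higher in CD71-high B droplets, of which 25 of 279 were cycling. Those 25 held 99.2% of the Pclaf UMIs of CD71-high droplets, 100% of Rrm2 and 56% of Pcna. The folds of the leading genes thus largely restate the share of cycling droplets, which was called on the same genes. Pclaf stood at 261 CPM in Main1 and 179 in Main2 in CD71-high and at 1.38 and 9.03 CPM in CD71-low droplets, a log2 fold of 5.17 (SE 0.21, adjusted p = 2.09e-125, edgeR quasi-likelihood test with Benjamini-Hochberg adjustment over all genes). Rrm2 had 89.9 and 77.0 CPM against 3.69 and 3.82 CPM, a log2 fold of 4.39 (SE 0.31). Both genes were higher in each library. The nucleotide enzymes Tk1 and Tyms had log2 folds of 3.0 and 2.36, and the helicase genes rose less, from 1.03 for Mcm7 to 1.60 for Mcm6. Pcna had a log2 fold of 0.84. Rrm1 (0.84, adjusted p = 0.102 by edgeR) and Mcm4 (0.22, adjusted p = 0.794) were not called, which made 10 of 12 S-phase genes.

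Mitotic genes were higher in the same droplets. The 25 cycling ones held 98.2% of the Top2a UMIs of CD71-high droplets, 96.4% of Ccna2 and 72.6% of Cenpa, so these folds too largely follow the call. Top2a had 89.9 CPM in Main1 and 90.4 in Main2 in CD71-high and 1.85 and 3.82 CPM in CD71-low droplets, a log2 fold of 4.85 (SE 0.31). Ccna2, the cyclin of S phase and early mitosis, had 32.4 and 54.8 CPM against 0.461 and 1.74 CPM, a log2 fold of 5.12 (SE 0.47). The mitotic cyclins Ccnb2 (4.73) and Ccnb1 (4.20), Ube2c (4.5), Mki67 (4.11), the spindle gene Nusap1 (3.93) and the survivin gene Birc5 (3.43) followed. Cenpf had 2.41, Cdc20 2.30, Spc25 1.64 and Cenpa 0.68 on the same log2 scale. Every one of these was higher in both libraries. Of the 20 mitotic genes 12 reached the 50 UMIs needed for a test and all 12 were called, but most reached it through the CD71-high droplets, so this count carries little on its own. The other 8 were Cdk1, Cenpe, Tpx2, Aurka, Aurkb, Plk1, Kif11 and Bub1. Plk1, the Polo kinase, had 10 UMIs in CD71-high and 0 in CD71-low droplets, at least 13.7-fold higher against a floor of 3 UMIs over the group, and Cdk1 had 23 and 8 UMIs.

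The 8 broad genes were all called, from 0.78 for the condensin gene Smc4 to 2.57 for Cks1b, a Cdk-binding protein, with Stmn1 at 2.54 and Hmgb2 at 1.77. In all 30 of 32 tested members were higher and the other 2 were not called, beside 6.36% of the 7548 genes tested that were higher, 4.16% that were lower and 10.5% called either way. Their median log2 fold was 2.08, against 0.00 over all genes. Both values include the 12 mitotic members, most of which passed the filter through the CD71-high droplets, as did Pclaf, Rrm2, Tyms and Tk1. Both are given as a description. Of 39 other cell cycle genes tested, from a list of 71, 22 were higher and 3 lower, with Cdca8 (2.39), Lig1 (1.90), Hells (1.77) and Racgap1 (1.69) the most raised. The same filter applied to these. Cdca8 and Racgap1 had 39 and 46 UMIs in all droplets of the B gate not called cycling, so this count too is a description. Tfrc, which encodes CD71 itself, had 14.4 and 10.4 CPM against 3.23 and 4.86 CPM and too few UMIs for a test.

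Among droplets under 4000 UMIs 0 of 17 tested members were called by edgeR (4 at an unadjusted p under 0.05), and DESeq2 on all droplets called 15 of 32. Erythroid genes were also higher, 7 of 7 tested with Hba-a2 (6.56) first, and 8 of the 279 droplets, of which 2 were cycling, had at least 10 erythroid UMIs. The 3 dendritic cell genes tested were higher as well, with Siglech at 3.98, while 4 of 6 B cell genes were lower. In droplets with B cell and without erythroid transcripts, a restriction added after the data were seen, 23 of 28 tested members were higher. Of the 7326 genes tested in this setting, 376 were higher and 248 lower. The median log2 fold was 1.54 for members and 0.0053 over all genes. The same filter on UMIs applied, so the members' count and median are again given as a description.

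**Figure D4:**
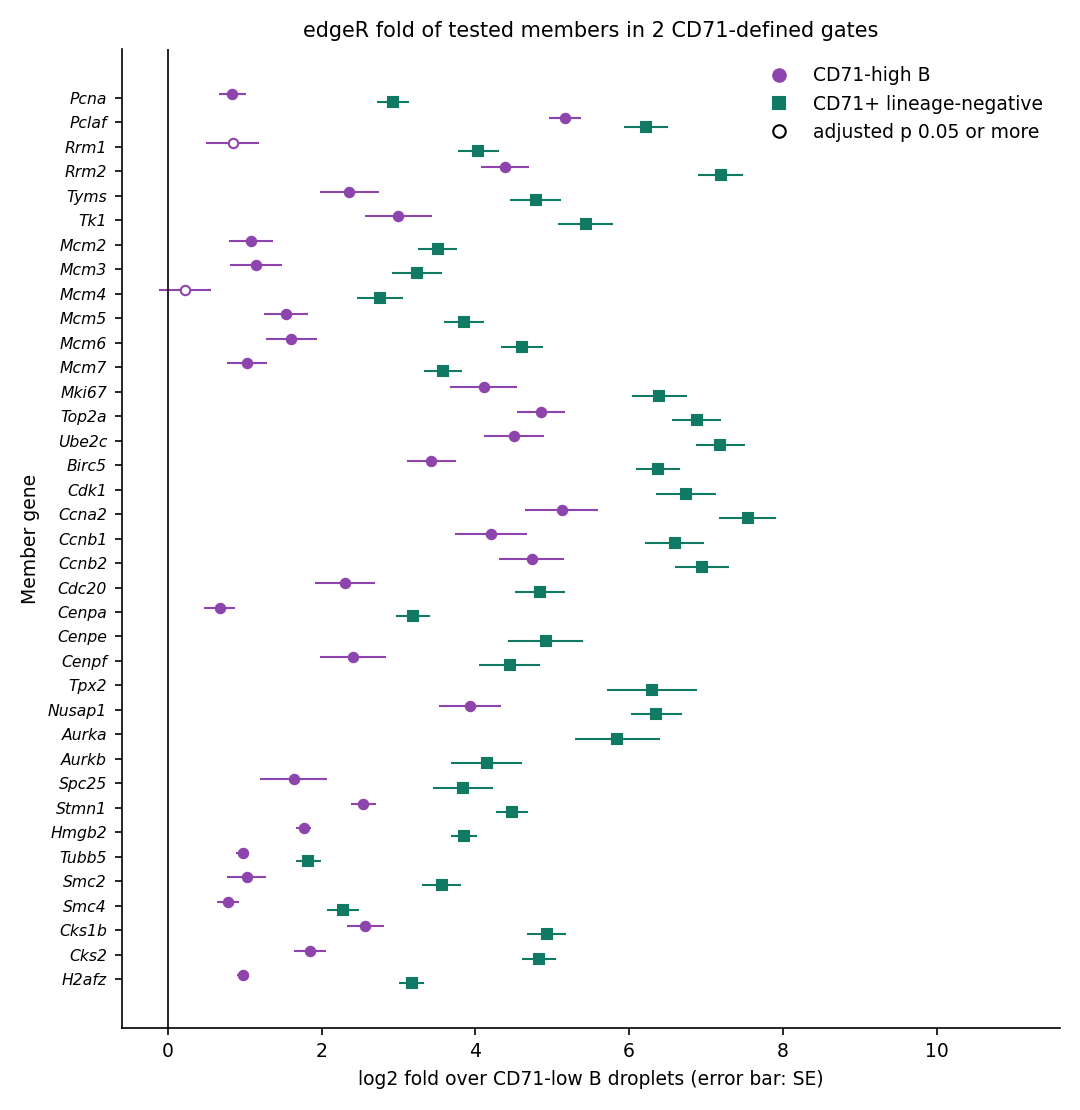
Log2 fold of each tested member over CD71-low B droplets (x axis, edgeR, error bars 1 SE) for CD71-high B droplets (circles) and the CD71+ lineage-negative gate (squares). Open symbols did not pass an adjusted p of 0.05, and Plk1, at 0 UMIs in CD71-low droplets, is left out. Both comparisons use the same CD71-low droplets, and Mcm4 and Rrm1 are the open circles.

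The CD71+ lineage-negative gate was then set against the same CD71-low B droplets. Ccna2 had 184 CPM in Main1 and 265 in Main2 against 0.461 and 1.74 CPM, a log2 fold of 7.54 (SE 0.37, adjusted p = 4.30e-87, edgeR with Benjamini-Hochberg adjustment). Rrm2 had 321 and 737 CPM against 3.69 and 3.82 CPM, a log2 fold of 7.19 (SE 0.29). Ube2c (7.19), Ccnb2 (6.95), Top2a (6.88), Cdk1 (6.74), Ccnb1 (6.59), Mki67 (6.39), Birc5 (6.38) and Pclaf (6.22) followed. Plk1 had 54 UMIs against 0, at least 132-fold higher against a floor of 3 UMIs over the group. The helicase genes had log2 folds from 2.76 (Mcm4) to 4.61 (Mcm6), and broad genes from 1.83 (Tubb5) to 4.92 (Cks1b).

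All 38 tested members were higher, beside 22.1% of the 7396 genes tested that were higher, 28.8% that were lower and 50.8% called either way, and Kif11 and Bub1 had too few UMIs. Their median log2 fold was 4.80, against -0.23 over all genes, and Plk1 lies above that median also at its bound. Most mitotic members, and Pclaf, Rrm2, Tyms and Tk1, reached the 50 UMIs needed for a test through the CD71+ lineage-negative droplets. The filter thus in part fixes this count and median, and they are given as a description. The gates differ in cell type, so a call is the usual outcome here. Of 51 other cell cycle genes tested under the same filter, 41 were higher and 5 lower. Hmmr (6.71) and Cdca3 (6.14) were among the most raised, while Cdc6 had 68 against 1 UMI and Ccne2 55 against 2. Btg1, an antiproliferative gene, fell by 5.80 on the log2 scale. Tfrc had 137 and 125 CPM against 3.23 and 4.86 CPM, a log2 fold of 4.98. In droplets under 4000 UMIs 0 of 17 members were called by edgeR (1 at an unadjusted p under 0.05), and without droplets of 10000 or more UMIs, a setting added later, 6 of 18.

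Within this gate the antigens of cycling and other droplets stood far apart, and antibody tags took no part in the call. CD44, an adhesion receptor that falls as red cell precursors mature, had a median of 405 tags in Main1 and 362 in Main2 in cycling droplets, against 15.5 and 36.5 in the others. Ter119, which appears on maturing erythroid cells, was reversed, at 35 and 32.5 against 323 and 917. CD71 was positive in all by construction, at 376.5 and 358.5 against 759 and 1387.5. All 3 differences had the same direction in both libraries, and no test was made on 2 libraries. Total tags had medians of 976.5 in cycling and 1601.5 in other droplets.

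The transcripts of the same droplets followed this order. Klf1, an erythroid transcription factor, had 292 UMIs in 29 of 30 cycling droplets (472 CPM) and 0 in the 24 others. The progenitor factor Myb had 50 UMIs in 13 cycling droplets and 0 in the others. Hbb-bs, a beta globin, took 10824 CPM in cycling and 394216 CPM in other droplets, and Alas2, of haem synthesis, 88.8 and 1535 CPM. Cycling droplets of this gate had precursor transcripts and less globin. In the others globin took up a large part of all UMIs, which lowers other genes in CPM. It also left few UMIs for Klf1 and Myb, so their counts of 0 carry little on their own.

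In the Ly6G gate the cycling droplets had less Ly6G, at medians of 518 tags in Main1 and 398.5 in Main2 against 1350 and 1386.5 in the others. CD106, the adhesion molecule encoded by Vcam1, was high on them, at 74.0 and 70.5 against 8 and 7.5, and 12 of 13 were positive against 12.5% of the others. CD11b was alike, at 928 and 1005 against 910 and 987.5. Total tags were lower in cycling droplets, with medians of 2983 and 4429.5, while CD106 was higher. Over the whole gate Pclaf stood at 274 CPM in each library. All 61 of its UMIs lay in cycling droplets, as did all 45 UMIs of Ube2c, and both genes take part in the call.

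The 7 neutrophil genes on the list did not move one way with the call in this gate. Ngp and Camp, of secondary granules, stood at 88160 and 55501 CPM in cycling droplets against 45414 and 30776 CPM in the others. Elane, of primary granules, had 102 UMIs in 3 cycling droplets, all in Main2, and 0 elsewhere in the gate. Ltf, also of secondary granules, stood at 5996 CPM in cycling and 6958 CPM in other droplets. S100a8 had 161389 and 169263 CPM and S100a9 77430 and 94039 CPM. Retnlg, a gene of mature neutrophils, had 43.5 CPM in cycling and 11196 CPM in other droplets, lower in both libraries.

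**Figure D5:**
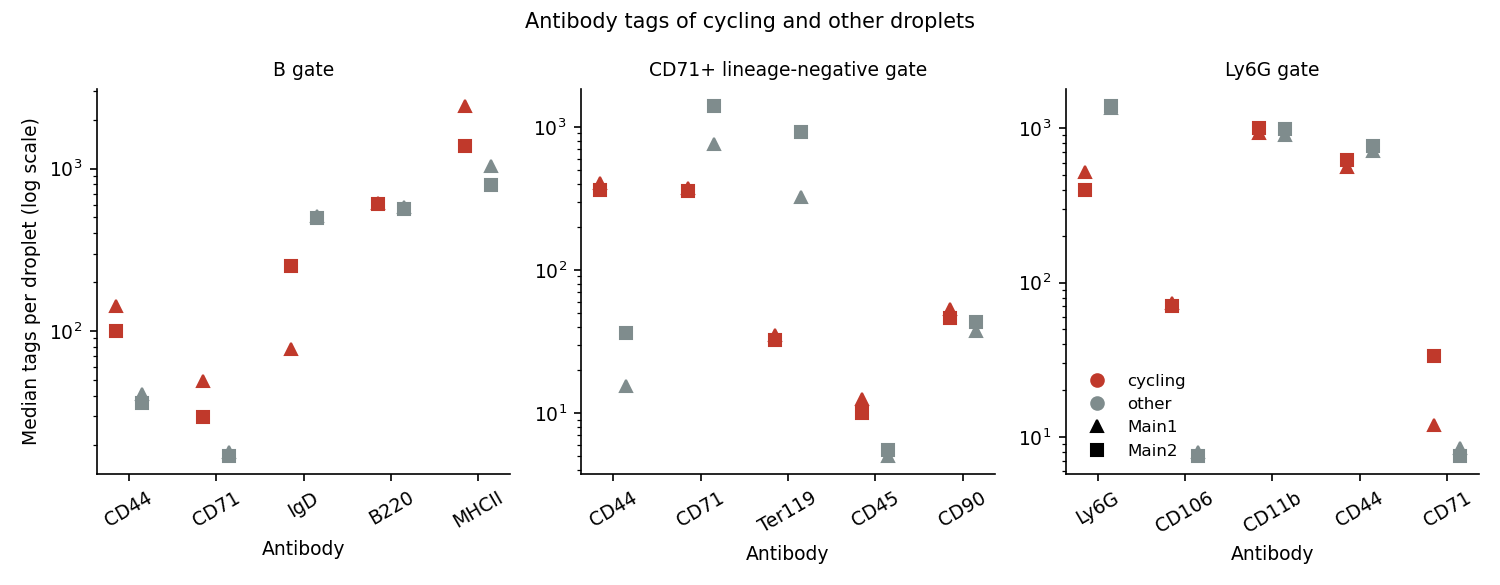
Median antibody tags per droplet (y axis, log scale) in cycling (red) and other (grey) droplets of 3 antibody gates, with Main1 as triangles and Main2 as squares. In the CD71+ lineage-negative gate CD44 is higher and Ter119 lower in cycling droplets, and in the Ly6G gate Ly6G is lower and CD106 higher, in both libraries.

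In the B gate the antibodies were tested on tags summed per library, since 75 cycling droplets were available. CD44 took 431 of each 10000 tags in Main1 and 411 in Main2 in cycling droplets against 179 and 176 in the others, a log2 fold of 1.25 (SE 0.11, adjusted p = 3.31e-11 by edgeR with Benjamini-Hochberg adjustment). IgD, carried by mature naive B cells, took 756 and 908 against 1599 and 1635, a log2 fold of -0.96 (SE 0.09). B220 had a log2 fold of -0.39 (SE 0.09, adjusted p = 0.00214 by edgeR), and was not called by DESeq2 (adjusted p = 0.108) or without the library block (adjusted p = 0.0838 by edgeR). Ly6C was called as well (0.53), but its log2 ratio of -0.88 in Main1 was opposite to that of 1.95 in Main2, and the call rests on Main2 and was made in no other setting tried. These 4 were 13.3% of the 30 antibodies. CD71 had a log2 fold of 0.84 and an adjusted p of 0.0849 by edgeR, and was called by DESeq2, whose 6 calls were CD106, CD11c, CD44, CD71, F4/80 and IgD. With TMM scaling, or with 4 genes asked for, edgeR called B220, CD44, IgD and MHCII. None was called with 2 genes asked for (0 of 30 by edgeR, 7 at an unadjusted p under 0.05) or among droplets of 2000 to 6000 UMIs (0 and 0).

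Per droplet, cycling B droplets had a median of 113 CD44 tags against 38.0, and 42.0 CD71 tags against 17. Their IgD was spread widely, with quartiles of 16.0 and 572 against 269 and 750. MHCII was 1702 against 900, in droplets with more tags in all (medians 4777 and 3164). B220, lower as a share of all tags, had a higher median per droplet, at 610 against 567 tags. Of the 75, 12 had at least 2 UMIs of germinal centre genes, against 29 of the 5379 others. These counts are not matched for depth, at medians of 4085 and 1666 UMIs. Gcsam, a signalling adaptor of germinal centre B cells, had 26 UMIs in 8 cycling droplets (56.4 CPM against 0.906 CPM). With libraries summed the other genes of this list were also higher, except Bcl6, at 8.68 CPM against 10.1 CPM. S1pr2 had 0 CPM in cycling droplets of Main2. At least 10 UMIs of plasma cell genes were found in 14 of 75 against 80 of 5379, of NK genes in 3 and of monocyte or macrophage genes in 7, so that not all of these droplets held B cells alone. With the restriction to B cell and no erythroid transcripts 66 of the 75 stayed.

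Marginal zone B cells, which guard the blood-facing rim of the follicle, were compared with follicular droplets. They were droplets whose CD21/35 fell in the upper 25% and whose IgD was lower than the median. Of these, 15 of 472 marginal zone droplets were cycling (3.18%), 2 of 153 in Main1 and 13 of 319 in Main2, and 7 after thinning (1.48%), against 0.493% and 0.0548% of follicular droplets. IgD, which in part defines both gates, was itself lower in cycling droplets of the B gate (log2 fold -0.96). Its part in this contrast was not tested. Pclaf had 36.8 CPM in Main1 and 98.4 in Main2 against 5.64 and 4.38 CPM, a log2 fold of 3.92 (SE 0.36, adjusted p = 6.20e-07 by edgeR). Top2a had 34.0 and 48.0 CPM against 5.01 and 3.13 CPM, a log2 fold of 3.50 (SE 0.40). In Main1 all 13 marginal zone UMIs of Pclaf lay in 1 droplet, and so did all 12 of Top2a. The Main1 values of these genes thus rest on 1 droplet each. Cks2 (1.21) and the histone variant gene H2afz (0.52) rose too. Hmgb2 (0.69) and Cks1b (1.61) were called on Main2: Hmgb2 had 125 CPM against 133 CPM in Main1 and 283 against 152 CPM in Main2, and Cks1b had log2 ratios of -0.69 and 2.14.

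These made 6 of 19 tested members. Of the 6506 genes tested 5.55% were higher, 4.32% lower and 9.87% called either way. Pclaf had 93 UMIs in marginal zone and 16 in follicular droplets, and Top2a 51 and 13. Both reached the filter on UMIs through the marginal zone droplets, so the count of members is given as a description. The helicase genes were not called, from -0.37 for Mcm5 to 0.70 for Mcm6. Of 32 other cell cycle genes tested under the same filter 5 were higher and 4 lower, among them Myc (2.47), Gmnn (1.91), Cdkn2d (-1.26) and Pold1 (-1.03). Mki67 had 19 UMIs in marginal zone and 2 in follicular droplets, and Birc5 24 and 3. Scaled by library totals the split of all calls turned from 361 higher of 642 to 297 higher of 852, with a shift of the median gene from 0.00 to -0.15, and 5 members were higher, without H2afz. Under 4000 UMIs 0 of 14 tested members were higher by edgeR and 2 lower (3 at an unadjusted p under 0.05), and DESeq2 called 2 of 19. Of the erythroid genes 5 of 6 tested and of the neutrophil genes 5 of 6 were lower in marginal zone droplets. The 3 globin genes among them rest on Main1, with log2 ratios from -4.76 to -3.30 there and from -0.02 to 0.50 in Main2. The part of these genes in the values above was not tested.

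Among CD4 T cells the split was by CD44, which marks antigen-experienced cells. In the upper tertile of CD44, 3 of 91 droplets were cycling (1 of 40 in Main1, 2 of 51 in Main2), and in the lower tertile 0 of 93, which allows a share of up to 3.23%. Hmgb2 had 436 CPM in Main1 and 811 in Main2 against 177 and 136 CPM, a log2 fold of 1.91 (SE 0.33, adjusted p = 0.0122 by edgeR). H2afz had 840 and 788 against 398 and 421 CPM, a log2 fold of 0.94. Both were higher in each library. Tubb5 (0.06) and Smc4 (0.51) were tested and not called, so 2 of 4 members were higher. Of the 1016 genes tested 3.25% were higher, 4.33% lower and 7.58% called either way. Hmgb2 had 151 UMIs in CD44-high and 27 in CD44-low droplets, and Smc4 61 and 29. Both reached the filter on UMIs through the CD44-high droplets. H2afz (186 and 70) and Tubb5 (122 and 84) reached it in either group. The filter thus in part fixes the count of members, which is given as a description. The summed mitotic level of 644 CPM in CD44-high droplets came to 83.8% from 1 droplet of Main2, and DESeq2 called 0 of the 4 members (2 at an unadjusted p under 0.05). The 4 globin genes tested were called lower in CD44-high droplets, which rests on Main1, with log2 ratios from -7.90 to -5.35 there and from -0.78 to 0.12 in Main2. Their part in these values was not tested.

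The cycling T droplets also carried more of some antigens. Their CD44 median was 218 in Main1 and 312 in Main2 against 125 and 153, and CD71 was 12.0 and 11.0 against 5 and 6. CD8a was positive in 20 of 25 and CD4 in 18 of the same 25, against 41.7% and 85.4% of the others. Of the 25, 7 lay in the CD8 T gate, 5 in the CD4 T gate and 13 in neither. Total tags were also higher, at medians of 5745 and 2971.5. T cell genes stood alike in both, with Cd3e at 885 and 919 CPM.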

How the data were processed

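Spleen cell suspensions had been pressed through a 40 um strainer and red cells lysed for 5 minutes, per the labels' protocols. The authors deposited whole-number counts per droplet, UMIs for 11713 genes and antibody tags for 30 antibodies, with no normalization. Per the submitters' processing notes, bcl2fastq and Cell Ranger 3.0.2 were used with mm10. No source used here names the counter of the antibody tags. The tables name droplets only by m1 and m2, taken for Main1 and Main2. They do not separate the 4 RNA and 4 antibody samples of a source, nor the 2 dates in their titles, so each source counted as 1 library and a date effect could not be looked at. Symbols were matched for 11682 identifiers. The rarest gene of the table was detected in 15 droplets. No droplet was removed and no doublet caller was run here.

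Tags of each antibody were transformed to centred log ratios over droplets and gated by a 2-component Gaussian mixture (posterior above 0.5, scikit-learn 1.9.0). UMIs were summed per library and gate, and tested in edgeR 4.0.16 under R 4.3.3 by quasi-likelihood, with TMM, library as block and 1 residual degree of freedom, over genes with 50 or more UMIs, called at a Benjamini-Hochberg adjusted p under 0.05. Both populations of a comparison come from the same libraries, which pairs them. In the comparisons by CD71 and of antibodies the prior degrees of freedom were infinite, so the p-values rest on a spread shared by all genes or antibodies. CPM are UMI sums per 1000000 UMIs. The scripts were tested on simulated data. DESeq2 1.42.0, other scalings, filters, depths and gates were tried. Named genes were the called members moving alike in both libraries, with exceptions named, and up to 4 genes of each other list by fold. The members and lists were chosen with earlier results of these data known. Some items of the panel and lists are not reported here.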

Additional observations from a re-analysis of the deposited data

How the results depend on the processing

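Of 124 values of the main results under other settings, 83 kept their direction and call or size and 41 moved. Of 1033 values of single members, antibodies and smaller gates, 831 stayed, 103 moved, 84 lost their call and 15 changed sign. The share of cycling droplets moved with the number of genes asked for. With 2 genes it was 10.3% over all droplets, 14.7% in the T gates and 7.08% in the B gate, and with 4 genes 2.35%, 2.71% and 0.788%. Thinned, it was 1.37%, 1.93% and 0.55%, or 2.55% in the B gate with 2 genes. Without droplets of 10000 or more UMIs it was 2.15% over all and 14.3% in the CD71+ lineage-negative gate, without T/B double-positive droplets 2.65% over all, and with ratios taken within each droplet 12.6% in the T gates. With 1 library left out it ran from 3.08% to 3.91% over all and from 33.3% to 73.3% in the CD71+ lineage-negative gate.

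For CD71 in the B gate, genes called were 794, and 88 by DESeq2, 159 under 4000 UMIs and 418 with the mixture gates; members higher were 30, and 15 by DESeq2 and 0 under 4000 UMIs. There Cenpa stood at -0.99, H2afz -0.27, Hmgb2 -0.0098, Mcm2 -0.032, Mcm7 -0.0053 and Smc4 -0.33. For the CD71+ lineage-negative gate, genes called were 1555 by DESeq2, 133 under 4000 UMIs and 184 without droplets of 10000 or more, with 0 members under 4000 and 6 without the large droplets. Under 4000, Cenpa was -0.033, H2afz -0.53, Mcm5 -7.11 and Tubb5 -0.55. For the marginal zone, members higher were 13 at 10 or more UMIs, 13 at 1 or more, 2 by DESeq2 and 0 under 4000 UMIs, where Hmgb2 was -0.32. DESeq2 called 196 genes there, and with 1 library left out Cks1b ran from -0.69 to 2.14. For CD44, genes called were 122 at 10 or more UMIs, 13 by DESeq2 and 234 with ratios within droplets, with 0 and 4 members higher in the last pair. Among antibodies 0 were called with 2 genes (7 at an unadjusted p under 0.05 by edgeR) and 0 at 2000 to 6000 UMIs (0 unadjusted), where Ly6C was -0.52 and -1.52. With 1 library left out Ly6C ran from -0.88 to 1.95. The causes were not tested. The fits under 4000 UMIs hold fewer droplets and test fewer genes.

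The library pairs the populations of each comparison, since both come from the same droplet libraries. With no replicate block 322 genes were called for CD71 in the B gate and 2 antibodies, CD44 and IgD. Counts of other comparisons stayed within 1.5 times. Few cycling droplets and 2 libraries limit the precision of shares in the small gates.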

Other observations

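Droplets left in none of the named gates held 21 cycling among 171 (12.3%), 12 of 100 in Main1 and 9 of 71 in Main2, and 12 after thinning. Of the 21, 10 had at least 10 UMIs of erythroid genes and 8 at least 5 UMIs of stem or progenitor genes, against 1 and 4 of the 150 others. Klf1 had UMIs in 9 of them and Myb in 10. Their CD45 tags had a median of 100 against 379 in the others, in droplets with fewer tags in all (826 against 1614.5), and their CD71 tags a median of 17 against 6.

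In the T gates the granzyme gene Gzma had 797 CPM in cycling and 153 CPM in other droplets, from 5 cycling droplets, with 25.4 CPM in Main1 and 1150 CPM in Main2, so the difference rests on Main2.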
